A study of Mus musculus with 6 samples.

Results

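This report describes 6 mouse genes that encode secreted antagonists of Wnt signalling: Sfrp1, Sfrp2, Sfrp4, Sfrp5, Frzb and Wif1. They were chosen by name, as members of these families, with earlier results of these data known. They are 6 of the 18193 genes that the array names by 1 symbol. Total RNA of normal, untreated bone from 3 skeletal sites was compared, with 2 Affymetrix mouse genome arrays per site. The skull sites were calvaria, the flat bone of the skull vault, taken without its sutures, and mandible, the lower jaw. The limb site was ulna, a long bone of the forelimb, from which soft tissue and epiphyses had been cleared. All animals were skeletally mature male mice of 24 to 26 grams, a strain that the study calls Black CD57, and none carried an engineered allele or received an agent. There were 10 such animals in 2 groups in this pilot. How the groups map to the arrays, and whether the arrays of a site came from separate animals, is not given in the sources used here, so every p-value measures only the spread between arrays, which may be technical.

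Wnt proteins are secreted signals that bind Frizzled receptors together with Lrp5 or Lrp6 at the cell surface, which stabilises β-catenin and turns on target genes through Tcf and Lef factors. In bone this pathway drives osteoblast differentiation, and loss of some of its inhibitors raises bone mass. The secreted Frizzled-related proteins, to which Frzb belongs as Sfrp3, carry a cysteine-rich domain like that of the Frizzled receptors and bind Wnts outside the cell, while Wif1 binds Wnts through a domain of its own.

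The promoters of the members differed in the letters just before the transcript start, as RefSeq on GRCm38.p6 gives them. Shown are the 30 bases from 50 to 21 before the start, read along the strand of the gene, because this is where a TATA box lies in genes that have one. The capitals mark a run of letters like the TATA box, ATAAAA.
Sfrp2, chr3:83766271-83766300, plus strand: cagatttgcATAAAAaaggccaagaaaact
Sfrp5, chr19:42202273-42202302, minus strand: ccgagccgggcgggaaagactcagggttcc
Frzb, chr2:80447417-80447446, minus strand: ggcggagctcttgtcggccgaggtgggaag
Wif1, chr10:121033954-121033983, plus strand: gcgaccgcctgcacaccaccggccgctctc
Sequence was found for 4 of the 6 members, and Sfrp1 and Sfrp4 had no entry. Of these stretches, that of Sfrp2 holds the TATA-like run, and the share of all promoters with such a run in these 30 bases was not counted. Over the full 250 bases before the start, TATAAA or ATAAAA on the strand of the gene was present in 14.2% of 32851 promoters, and among the members in Sfrp2 (first base 41 before the start) and Sfrp5 (first base 178 before the start). The core CTTTGA or CTTTGT, bound by Tcf and Lef factors, was searched on both strands and was present in 27.6% of promoters, with 1 match in Frzb and none in Sfrp2, Sfrp5 or Wif1. The core TGTGGT or TGCGGT, bound by the osteoblast factor Runx2, was searched on both strands and was present in 18.6% of promoters, with 1 match in Sfrp5 and none in Sfrp2, Frzb or Wif1. These matches describe letters and no binding was measured.

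Values are signal, a linear intensity scaled on each array, and the values used here come without a detection call. The median of an array, which ran from 30.6 to 33.6, is therefore used as the working floor. A log2 difference is between the mean log2 signals of 2 sites after each array was divided by its median. A gene is called at an adjusted p under 0.05 from limma and a change of at least 2-fold. The 3 comparisons share arrays with each other and are not independent.

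The content of the bones differed between sites, and these values stand beside every result below. Osteoblast markers, with 7 of 10 tested, summed to 28850 to 32660 in calvaria, 28160 to 29190 in mandible and 6051 to 6285 in ulna, and 7 of 7 were called higher than in ulna at both skull sites. Tooth markers summed to 64530 to 64720 in mandible, where 8 of 8 were called higher than at either other site, against 55.3 to 92.4 in calvaria and 89.0 to 105 in ulna, where 7 of 8 lay below the array median. Epithelial markers summed to 8735 to 8740 in mandible, 219 to 243 in calvaria (7 of 10 below the median) and 263 to 318 in ulna (4 of 10 below). Skeletal muscle markers summed to 7511 to 7692 in calvaria, 57870 to 58830 in mandible and 66660 to 67430 in ulna. Meningeal markers, with 7 of 9 tested, summed to 1797 to 2347 in calvaria, 555 to 595 in mandible and 367 to 402 in ulna. Tendon and fibroblast markers, with 9 of 10 tested, summed to 12370 to 13510 in calvaria, 17520 to 18330 in mandible and 3465 to 3502 in ulna. Between mandible and calvaria this sum went against most of its members, of which 2 were called higher and 4 lower (median log2 difference −0.36). The ratio of 3′ to 5′ signal, a sign of RNA quality, was 0.791 to 0.933 for Gapdh and 1.39 to 1.67 for Actb over the 6 arrays, with the ulna arrays highest for both.

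All 6 members were tested, through 10 of their 12 probe sets. Of these 10, 3 probe sets (1 of Sfrp1 and both of Frzb) passed the filter on low values through the mandible arrays alone, so their mandible values had to be the higher ones. Another 2 probe sets (the single one of Sfrp2 and 1438620_x_at of Sfrp1) lay above the median at both skull sites and on no ulna array, so ulna had to be lowest for them. Where a site lay below the median on both arrays, the log2 difference printed is the fitted one, and a bound is given with it. Between calvaria and ulna, 2 members were called higher in calvaria (Sfrp2 and Wif1) and none lower, where 8.36% of all 12326 genes tested were called higher and 4.54% lower. Between mandible and ulna, 4 members were called higher in mandible (Sfrp1, Sfrp2, Frzb and Wif1) and none lower, where 11.0% of genes were called higher and 10.9% lower. Between mandible and calvaria, Sfrp1 and Frzb were called higher in mandible and Sfrp2 lower, where 5.14% of genes were called higher and 4.01% lower. The median log2 difference over all genes tested was −0.05, −0.08 and −0.09 in the same order. In whole bone, fewer cells of a type and less RNA per cell cannot be told apart.

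**Figure D1:**
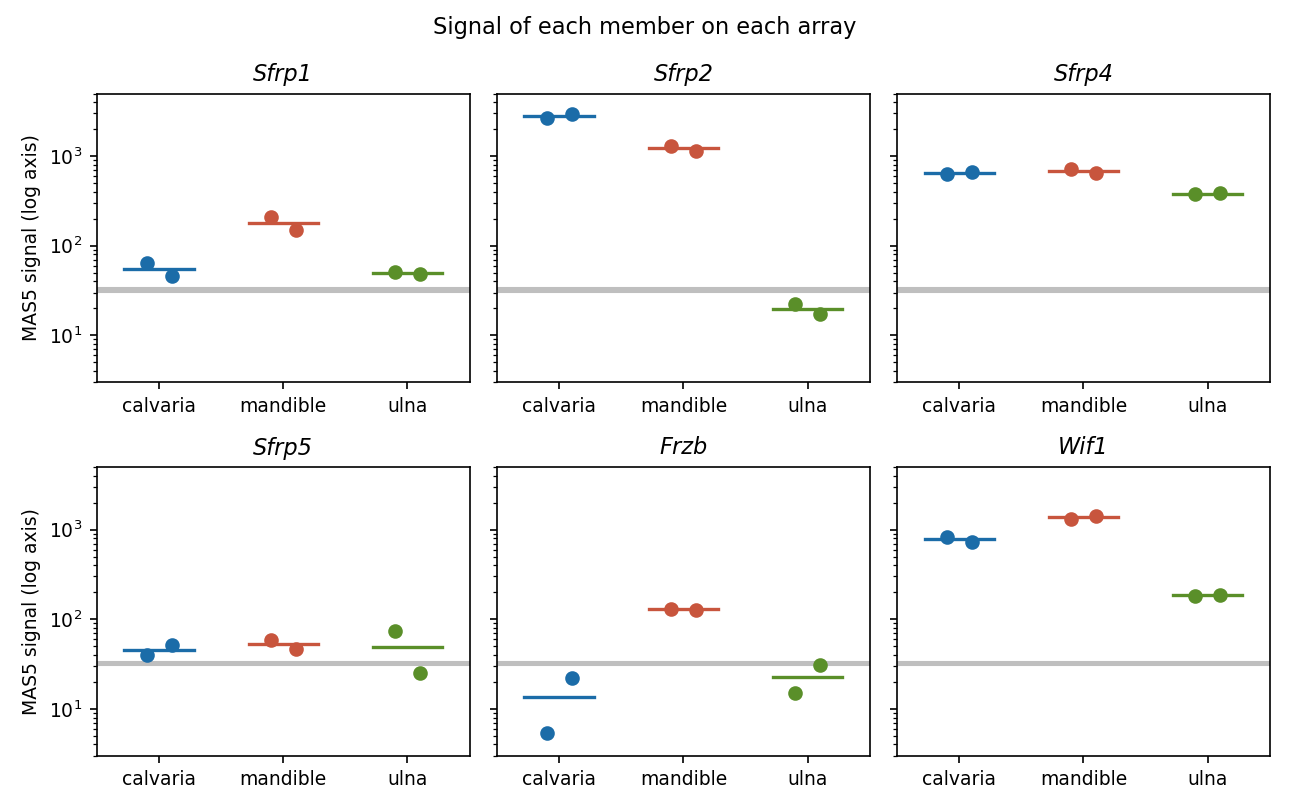
Signal of each member on each array (log axis, intensity), with 2 points per site, a bar at the mean and a grey band for the range of the array medians, 30.6 to 33.6. Sfrp2 lies at 1137 to 2945 at the skull sites and below the band in ulna, Wif1 is highest in mandible, Sfrp1 and Frzb stand out in mandible, and Sfrp5 runs from 25.0 to 73.1 with no separation of sites.

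Sfrp2 differed from ulna more than any other member. It belongs with Sfrp1 and Sfrp5 to 1 branch of the family and is made by mesenchymal cells. The signal of its single probe set (1448201_at) was 2645 and 2945 in calvaria, 1301 and 1137 in mandible, and 22.3 and 17.2 in ulna. No groups overlapped, and both ulna arrays lay below their array median. Between calvaria and ulna the log2 difference was 7.08 (SE 0.13, adjusted p = 9.39e-11). Because ulna gives only a bound, this is at least 86.0-fold. Between mandible and ulna the log2 difference was 5.84 (adjusted p = 5.44e-10), or at least 36.5-fold. Mandible was 2.36-fold lower than calvaria, a log2 difference of −1.24 (adjusted p = 6.61e-05). The order of Sfrp2 was therefore calvaria, mandible, ulna, with each step past the spread between arrays. The summed meningeal markers fell in the same order, although their members went both ways, with 2 called higher and 1 lower between mandible and ulna and 1 higher and 3 lower between mandible and calvaria. Their part in the Sfrp2 difference was not tested.

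Wif1 was high at both skull sites and highest in the jaw. It is an antagonist expressed as osteoblasts mature and is unrelated to the Frizzled-like family in its Wnt-binding domain. The signal of its probe set (1425425_a_at) was 819 and 736 in calvaria, 1329 and 1416 in mandible, and 183 and 188 in ulna. All 6 arrays lay well above their medians, and no groups overlapped. Calvaria exceeded ulna 3.97-fold (log2 difference 1.99, adjusted p = 5.38e-08). Mandible exceeded ulna 6.83-fold (log2 difference 2.77, adjusted p = 6.49e-09). Mandible exceeded calvaria 1.72-fold, a log2 difference of 0.78 (adjusted p = 0.000143) that passed the test on p but not the 2-fold limit. The order was mandible, calvaria, ulna.

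Sfrp1 was higher in mandible than at the other sites, and no probe set was called between calvaria and ulna. It is a Wnt antagonist whose loss in mice raises trabecular bone mass. The probe set with the highest mean (1428136_at) gave a signal of 63.9 and 46.0 in calvaria, 209.9 and 149 in mandible, and 50.6 and 47.8 in ulna. Both mandible arrays lay above all others, and the calvaria and ulna arrays overlapped. Mandible exceeded ulna 3.31-fold (log2 difference 1.73, adjusted p = 0.000199) and calvaria 3.17-fold (log2 difference 1.66, adjusted p = 0.00062). The difference between calvaria and ulna was 0.06 on the log2 scale, with a 95% interval from −0.47 to 0.60 (adjusted p = 0.873).

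The other probe sets of Sfrp1 allowed a look within the gene. Probe set 1448395_at gave 57.1 and 44.2 in calvaria, 144 and 161 in mandible, and 42.4 and 29.9 in ulna. Probe set 1438620_x_at gave 42.6 and 36.8 in calvaria, 98.6 and 115 in mandible, and 27.3 and 17.8 in ulna. Probe set 1460187_at gave 21.5 and 20.5 in calvaria, 87.4 and 99.3 in mandible, and 15.5 and 13.4 in ulna, and it lay above the array median in mandible alone. All 4 tested probe sets were called between mandible and ulna and between mandible and calvaria, and none of the 4 between calvaria and ulna. Where neither site lay below the median on both arrays, the log2 difference was 1.73 and 1.98 from ulna and 1.39 to 1.66 from calvaria. The 1.98 is that of 1448395_at, for which 1 of 2 ulna arrays was above the median. The other differences are bounds, at least 3.19-fold from ulna for 1438620_x_at and at least 2.79-fold from either site for 1460187_at. Between calvaria and ulna the log2 differences ran from 0.06 to 0.77, and adjusted p was 0.0945 for 1438620_x_at. The calvaria and ulna arrays did not overlap for 1438620_x_at and 1460187_at, with calvaria above (for the latter both sites were below the array median), and after scaling they overlapped for the other 2. These probe sets read 1 transcript pool and are not independent. The last probe set, 1416594_at, was not tested, with a signal of 1.93 to 12.0 over all arrays.

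Frzb was also highest in mandible, at a low level elsewhere. It was first found in cartilage and is made by chondrocytes and skeletal progenitors. The probe set with the highest mean (1416658_at) gave a signal of 5.37 and 22.0 in calvaria, 130.0 and 128 in mandible, and 15.0 and 30.5 in ulna. Both mandible arrays stood above all others, whereas the 4 remaining arrays lay below their medians and overlapped. Mandible exceeded ulna with a log2 difference of 2.47 (SE 0.63, adjusted p = 0.00833) and calvaria with one of 3.53 (adjusted p = 0.00218), each at least 3.86-fold. Without ulna replicate 1 the difference from ulna was 1.95 with an adjusted p of 0.0578. Between calvaria and ulna the log2 difference was −1.05, with a 95% interval from −2.44 to 0.33 (adjusted p = 0.242), and −2.07 without calvaria replicate 2 (adjusted p = 0.0261). That fit takes the 1 array left to vary like the other groups, and all these values lie below the array median, so no direction is read from it.

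The second probe set of Frzb (1448424_at) gave 1.62 and 0.771 in calvaria, 47.7 and 54.9 in mandible, and 2.49 and 1.01 in ulna. Mandible again stood above all other arrays. It did not pass the test (adjusted p = 0.171 from ulna and 0.185 from calvaria). Both other sites lay far below the array median, so mandible was at least 1.53-fold higher than either. When no filter on low values was applied, adjusted p was 0.00857 and 0.00895. Cartilage markers, with 8 of 10 tested, summed to 730 to 737 in calvaria, 1398 to 1511 in mandible and 377 to 490 in ulna. The mandible was taken with its teeth, and the part of the tooth, epithelial and cartilage markers in the Sfrp1 and Frzb differences was not tested.

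**Figure D2:**
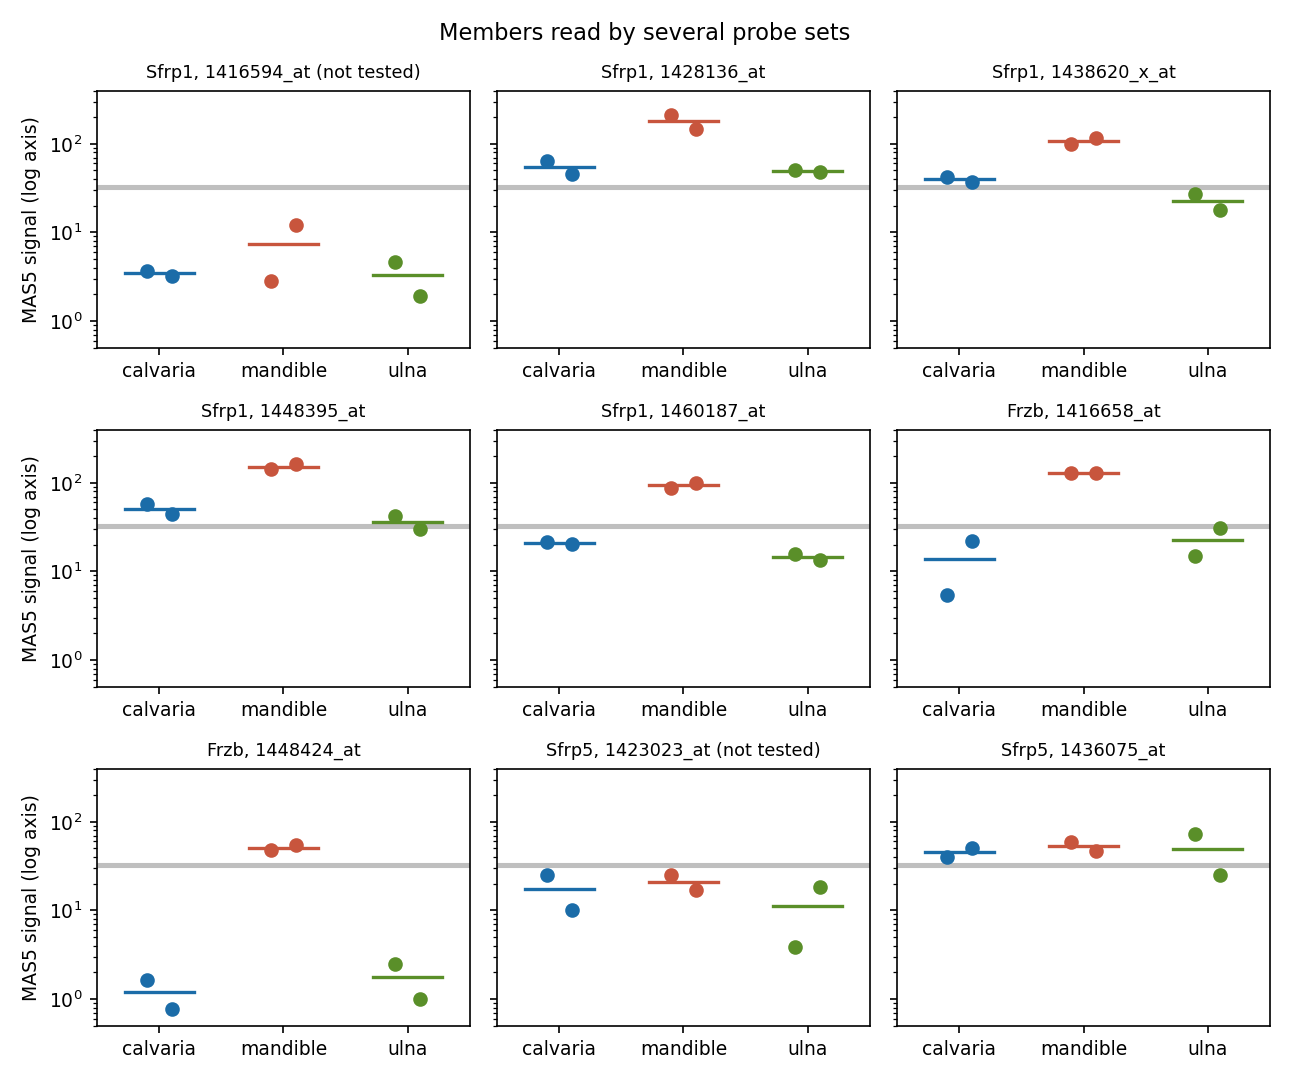
Signal on each array (log axis, intensity) for each probe set of the members with more than 1 probe set: Sfrp1 (5), Frzb (2) and Sfrp5 (2). The 4 tested probe sets of Sfrp1 and both of Frzb have their 2 mandible points above all others, and the probe sets of Sfrp5 show no separation of sites.

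Sfrp4 differed by less than 2-fold between skull and limb. It lies with Frzb on the other branch of the family, and its loss in humans thins the cortex of bone. The signal of its probe set (1451031_at) was 636 and 673 in calvaria, 711 and 655 in mandible, and 373 and 384 in ulna. The skull arrays overlapped with each other and lay above both ulna arrays. Calvaria exceeded ulna 1.64-fold (log2 difference 0.71, adjusted p = 0.000136) and mandible exceeded ulna 1.66-fold (log2 difference 0.73, adjusted p = 6.34e-05). Both passed the test on p and were under the 2-fold limit. Mandible and calvaria differed by 0.02 on the log2 scale, with a 95% interval from −0.17 to 0.22 (adjusted p = 0.899).

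Sfrp5 gave no difference that the arrays could separate. It is best known as an antagonist secreted by fat tissue. Its tested probe set (1436075_at) gave a signal of 40.2 and 50.9 in calvaria, 58.7 and 46.9 in mandible, and 73.1 and 25.0 in ulna. The ulna arrays lay on either side of all others, and every group overlapped. The log2 difference was 0.18 between mandible and ulna, with a 95% interval from −0.80 to 1.16 (adjusted p = 0.775). Between calvaria and ulna the interval ran from −0.97 to 0.98 (adjusted p = 0.996), and between mandible and calvaria from −0.80 to 1.15 (adjusted p = 0.824). Such intervals include changes near 2-fold either way. The second probe set (1423023_at) was not tested and gave 3.86 to 25.2 over all arrays.

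**Figure D3:**
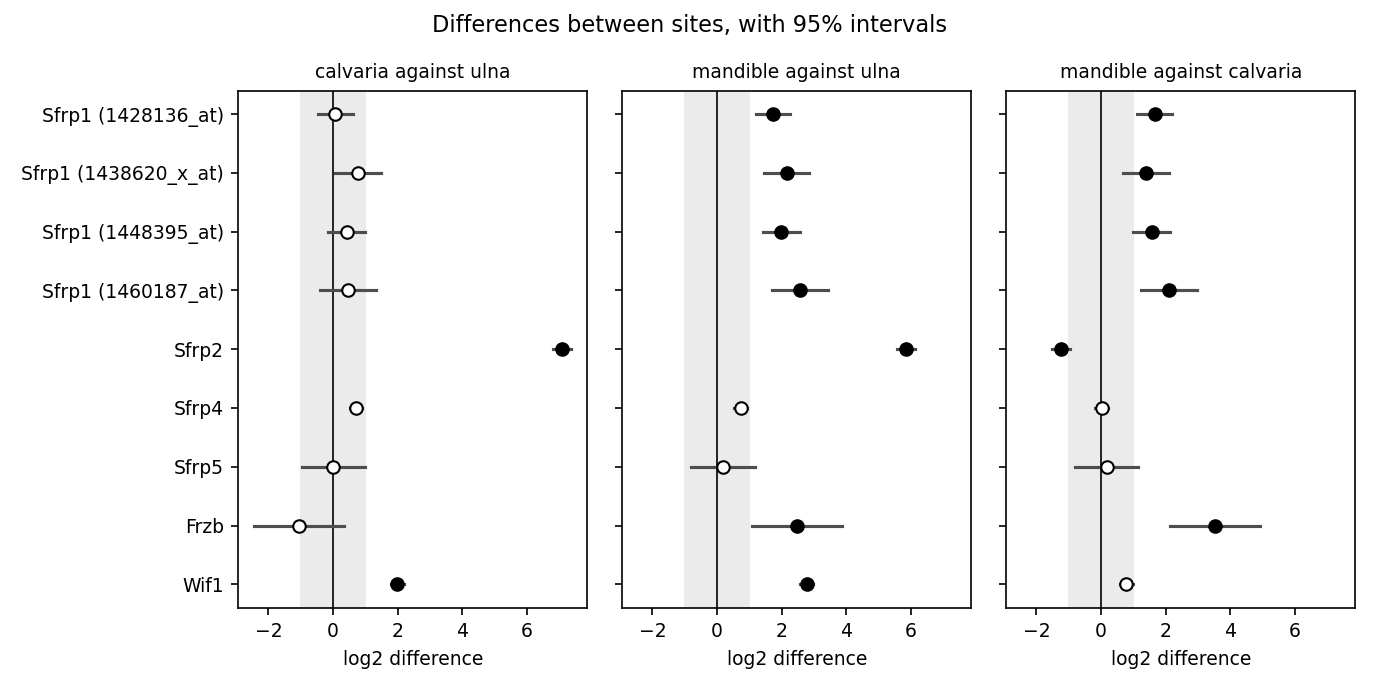
Log2 difference of each tested member probe set in the 3 comparisons, except the second probe set of Frzb, with 95% intervals from limma; filled points were called and the grey area is within 2-fold. Sfrp2 reaches fitted values of 7.08 and 5.84 over ulna, the Sfrp1 probe sets are filled in the comparisons with mandible alone, and the Sfrp5 intervals span 0 throughout.

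Since osteoblast markers also differed between skull and limb, the members were set against the mean log2 signal of the 7 tested markers on the same array. This comparison was chosen after the values were seen and is given as a description. The marker mean was 2.33 higher in calvaria than in ulna, 2.30 higher in mandible than in ulna, and 0.03 lower in mandible than in calvaria (log2 difference −0.03). Relative to it, and with ulna taken at the array median, Sfrp2 was higher than in ulna by at least 4.10 in calvaria and at least 2.89 in mandible. Wif1 came to −0.34 in calvaria and 0.47 in mandible against ulna, without overlap of the arrays in either. In ulna 1 of the 7 markers lay below the array median, so its part in this mean has no exact size. The median of the 7 marker differences from ulna was 1.92 in calvaria and 2.20 in mandible. Against that median the Wif1 difference of 1.99 in calvaria is not below the markers, so that sign is unsettled. Sfrp4 came to −1.62 and −1.57, and Sfrp5 to −2.33 and −2.12. Sfrp1 came to −2.27 in calvaria and −0.57 in mandible. For Frzb the bound against ulna in mandible was at least −0.35, which leaves the sign unsettled, and calvaria against ulna has no value because both lay below the median. Between mandible and calvaria, where the markers were nearly level, the relative differences were 1.69 for Sfrp1, −1.21 for Sfrp2, at least 1.98 for Frzb and 0.81 for Wif1.

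The genes whose pattern over the 6 arrays lay nearest to each member were found by the root mean square difference of log2 values, after the mean of each gene was removed. Small distances over 6 arrays describe a shared pattern and no more. Nearest to Wif1 was Col11a1 (distance 0.0784), a collagen chain of cartilage and bone, with a signal of 1533 ± 6.60 in calvaria, 2552 ± 22.5 in mandible and 329 ± 5.93 in ulna (SD, n = 2). Ndnf (0.102) and Fndc4 (0.142) followed. Nearest to Sfrp1 were Pxdn (0.110), a peroxidase of the extracellular matrix, Fam20a (0.114), a secretory pathway protein needed for enamel, and Tafa5 (0.163).

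Sfrp2 lay farther from its nearest gene than any other member did. Its distances include ulna values below the array median, so they do not show that its pattern stands alone. The nearest gene was Cpz (0.552), a carboxypeptidase that itself carries a Frizzled-like domain, with a signal of 319 ± 9.71 in calvaria, 219 ± 8.44 in mandible and 3.62 ± 2.06 in ulna (SD, n = 2). Mdfi (0.940) and Scg5 (1.02) came next, and the ulna signal of Cpz, Mdfi and Scg5 was below the array median. Frzb lay nearest to Ap1m2 (0.367), an adaptor subunit of epithelial cells, Them5 (0.371) and Aox3 (0.411), which were likewise low outside the mandible. Sfrp4 lay nearest to Glmp (0.0374), Cd2ap (0.0435) and Tasor2 (0.0442). The genes nearest to Sfrp5, Emc8 (0.172), 9430038I01Rik (0.174) and Derl3 (0.181), shared its spread between the ulna arrays.

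The rest of the pathway was followed in 5 lists. They are the other antagonists, the Wnt ligands, the receptors with the R-spondins, the intracellular transducers, and genes known as targets of the pathway. The target list shares genes such as Apcdd1 and Znrf3 with the antagonist list, so these are counted under both. A gene that passed the filter through the skull arrays alone had to be higher there, so the counts below are a description. Of all genes tested, 8.36%, 11.0% and 5.14% were called higher in the order of the comparisons, and 4.54%, 10.9% and 4.01% lower. Their median log2 differences were −0.05, −0.08 and −0.09. Genes are named by the size of the fitted difference. Where a gene lay below the array median at a site, that size has no rank among the others, and the bound is given. With such sites raised to the array median, the receptor medians below become 0.82, 1.30 and 0.52 in the order of the comparisons. Of the called receptors, 8, 8 and 3 were above the median on at least 1 array of each site.

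Between calvaria and ulna, 4 of the 9 tested other antagonists were called higher and none lower, with a median log2 difference of 0.96. Dkk3 (2.22, adjusted p = 1.73e-06) and Dkk1 (1.47, adjusted p = 2.04e-06) were higher and measured at both sites. Sostdc1 (fitted 1.79, adjusted p = 0.00103) was at least 1.77-fold higher. Dkk1 binds the Lrp5 and Lrp6 receptors, and its signal was 497 and 521 in calvaria against 178 and 171 in ulna. Dkk2 (fitted 3.41, adjusted p = 0.0148) was at least 1.12-fold higher and lost its call without calvaria replicate 1 (adjusted p = 0.125). Sost, the osteocyte antagonist sclerostin, is named here after its values were seen. Its signal was 391 and 405 in calvaria, 689 and 634 in mandible, and 562 and 530 in ulna, so calvaria was lowest, with a log2 difference from ulna of −0.53 (adjusted p = 0.00106) that is under 2-fold.

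Among the ligands, 2 of 9 tested genes were called higher in calvaria than in ulna (median 0.10), namely Wnt7a (fitted 2.56, adjusted p = 0.00487, at least 1.36-fold) and Wnt9a (fitted 1.80, adjusted p = 0.000373, at least 3.12-fold). Wnt7a lost its call without calvaria replicate 1 (adjusted p = 0.0657), which leaves 1. Among the receptors and R-spondins, 11 of 21 were called higher and 1 lower (median 1.23). Those of largest fitted size were all below the median in ulna. They were Ror2 (2.57, adjusted p = 0.00028, at least 1.76-fold), Rspo3 (2.51, adjusted p = 0.000234, at least 3.61-fold), Ptk7 (2.39, adjusted p = 0.0102, at least 1.08-fold) and Fzd8 (2.10, adjusted p = 0.0042, at least 2.24-fold). Lrp4, a receptor that sclerostin binds, is named after its values were seen and was measured at both sites, with 385 and 336 in calvaria against 70.5 and 90.7 in ulna (2.09, adjusted p = 2.31e-06). Ptk7 lost its call without calvaria replicate 2 (adjusted p = 0.0734), and Rspo3, below the array median at the other sites, was not tested without either calvaria array. The gene called lower was the receptor Fzd4 (−1.51, adjusted p = 9.09e-06), named after its values were seen. No transducer of 13 was called by limma (median 0.11), with 3 higher and 1 lower at an unadjusted p under 0.05. At an adjusted p under 0.05, Ctnnb1, which encodes β-catenin, was higher (0.68, adjusted p = 8.27e-06) and Csnk1a1 lower (−0.24, adjusted p = 0.0175). Both changes are under 2-fold, and both genes are named after their values were seen. Of 12 targets, 2 were called higher (median 0.53), Ccn4 (1.54, adjusted p = 3.78e-07) and Ccnd1 (1.09, adjusted p = 3.02e-05).

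Between mandible and ulna, 6 of 9 other antagonists were called higher and none lower (median 1.53). Dkk3 (2.29) and Znrf3 (1.76), a ligase that removes Frizzled from the surface, were measured at both sites. Sostdc1 (fitted 3.62) was at least 6.31-fold higher and Dkk2 (fitted 3.91) at least 1.57-fold. Dkk2 lost its call without mandible replicate 1 (adjusted p = 0.0565). Sostdc1, an antagonist known from tooth development, gave a signal of 226 and 196 in mandible, 69.1 and 47.7 in calvaria, and 19.6 and 12.7 in ulna. Of 9 ligands, 5 were called higher (median 1.25). Among them, Wnt5a (2.79) and Wnt4 (1.66) were measured at both sites, and Wnt10a (fitted 3.18) was at least 5.36-fold and Wnt7a (fitted 2.72) at least 1.52-fold higher. Of 21 receptors and R-spondins, 13 were called higher (median 1.42). Fzd1 (2.59) was measured at both sites, with 746 and 730 in mandible against 103 and 124 in ulna, and Fzd3 (2.43) lay above the median on 1 of 2 ulna arrays. Ptk7 (fitted 3.58) was at least 2.46-fold and Ror2 (fitted 3.20) at least 2.72-fold higher. Of 13 transducers, Tcf7l1 (1.47) was called (median 0.18), and on adjusted p alone 3 were higher and 2 lower. Of 12 targets, 8 were called higher (median 1.15), with Ccn4 (2.40), Bmp4 (2.12) and Znrf3 (1.76) measured at both sites and Nkd1 (fitted 1.54) at least 1.30-fold higher. The Nkd1 call had an adjusted p of 0.0414 and was lost without calvaria replicate 2 (0.0507) or ulna replicate 1 (0.161), and Nkd1 was not tested without either mandible array. Without mandible replicate 1 the targets called fell to 5.

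Between mandible and calvaria, 2 of 9 other antagonists were called higher (median 0.54), Sostdc1 (1.83, adjusted p = 0.00121) and Apcdd1 (1.02, adjusted p = 0.000495), an inhibitor at the cell membrane. Apcdd1 fell under 2-fold without calvaria replicate 1 (0.97) or mandible replicate 2 (0.90). Of 9 ligands, 5 were called higher (median 1.09). Wnt10a (3.08, adjusted p = 0.0012), Wnt5a (2.75, adjusted p = 9.35e-05) and Wnt4 (1.34, adjusted p = 0.00359) kept their calls whichever array was left out, with Wnt10a above the median on 1 of 2 calvaria arrays. Wnt11 (fitted 1.32, adjusted p = 0.0338, at least 1.92-fold) lost its call when either calvaria or either mandible array was left out, and Wnt6, named after its values were seen, lost its own without either calvaria array or without mandible replicate 1, which leaves 3 ligands called in each of those 3 fits. Wnt5a, which signals largely outside β-catenin, gave 329 and 379 in mandible against 34.6 and 74.9 in calvaria and 50.8 and 43.8 in ulna, so like Sfrp1 and Frzb it was high in the jaw alone.

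Of 21 receptors and R-spondins, 3 were called higher in mandible than in calvaria and 1 lower (median 0.63). Rspo3, an agonist that amplifies Wnt signals, was at least 3.61-fold lower (fitted −2.27, adjusted p = 0.000665) and gave 114 and 121 in calvaria against 21.8 and 28.6 in mandible. Lgr6 (1.32, adjusted p = 0.00461) kept its call whichever array was left out. Ror1 (1.46, adjusted p = 0.0275) and Fzd6 (1.17, adjusted p = 0.0129) each lost theirs without calvaria replicate 1 (0.154 and 0.082) and without either mandible array, and Rspo3 was not tested without either calvaria array, so 1 receptor was left called without calvaria replicate 1 and 2 without either mandible array. No transducer of 13 was called by limma, with 3 higher and 1 lower at an unadjusted p under 0.05. At an adjusted p under 0.05, 2 were higher and 1 lower, each under 2-fold. The transducer median of 0.01 turned to −0.004 after quantile normalization. Of 12 targets, 2 were called higher (median 0.71), Bmp4 (1.35, adjusted p = 0.000841) and Apcdd1, or 1 without calvaria replicate 1 or mandible replicate 2. Epithelial and tooth markers were high in the mandible alone, and their part in the Wnt10a, Wnt5a, Wnt4 and Bmp4 differences was not tested.

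**Figure D4:**
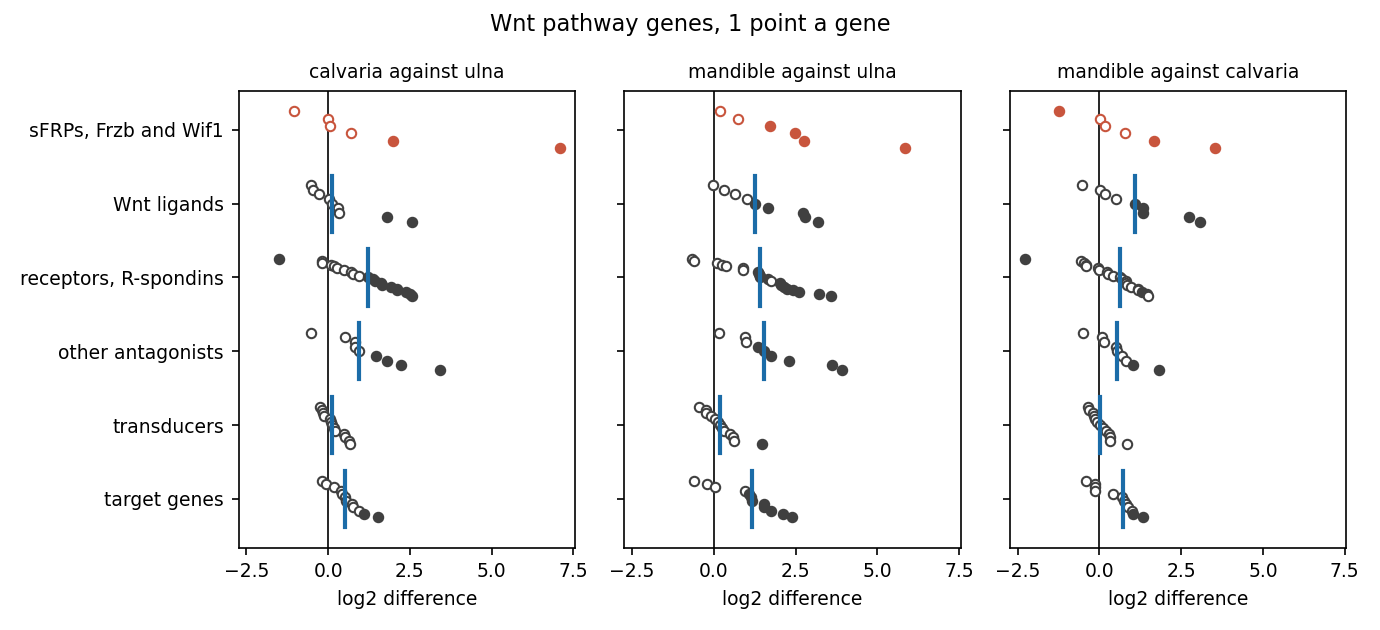
Log2 difference of each tested gene in the 3 comparisons, for the 6 members and 5 lists of the Wnt pathway, with filled points for called genes and blue bars for list medians of the fitted differences. The receptor medians are 1.23 and 1.42 over ulna and 0.63 between mandible and calvaria, and the transducer medians stay between 0.01 and 0.18.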

How the data were processed

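The authors hybridised total RNA of each site to arrays after labelling in 1 cycle, and computed the deposited values with MAS5 as signal, a linear intensity scaled on each array to a trimmed mean of 100. The deposited intensity has 1 value for each of 45101 probe sets on each of 6 arrays. Probe sets were named from the platform annotation through a table of mouse genes: 34958 had 1 symbol, 932 several and 9211 none, and 64 control probe sets were not tested. Signals were scaled by the median of their array before log2, without an offset. The filter kept 25233 probe sets that exceeded the median on 2 or more of the 6 arrays, for 12326 genes, each read through its tested probe set of highest mean.

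A mean per site was fitted over all 6 arrays with limma 3.58.1 (R 4.3.3) and an intensity trend in the moderated variances (3 residual and 7.67 prior degrees of freedom). The Benjamini and Hochberg adjustment covered all 25233 probe sets in each comparison. A call needed an adjusted p under 0.05 and 2-fold. A probe set below the median on both arrays of a site gives a bound there, taken against the higher of its own value and the array median. The fit was tested on simulated data. Tables were drawn up in Python 3.11.15 with pandas 2.3.3, and figures in matplotlib 3.10.9. The number of arrays, 2 per site, limits the precision.

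The members and lists were chosen with earlier results of these data known. Named are all 6 members with every probe set, in each Wnt list and comparison up to 4 called genes of largest change, and the 3 genes nearest to each member. The marker lists also cover osteocytes, osteoclasts, neurons and glia, adipocytes, erythroid cells, neutrophils, B cells, macrophages and endothelium. Replicate numbers were not used to pair arrays. Alternatives were other scalings, filters, an offset, other variance models, the arrays of a comparison alone, a replicate block, other call rules and leaving out each array.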

Additional observations from a re-analysis of the deposited data

How the results depend on the processing

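Over the alternatives run, Sfrp2 and Wif1 kept their calls against ulna in 16 of 16, as did Sfrp1 between mandible and ulna. The size of adjusted p depended on the variance model. Between calvaria and ulna, adjusted p of Sfrp2 was 0.000756 without the trend and 0.00653 without moderation, from 9.39e-11 in the main fit. For Wif1 it was 0.00183 and 0.0107, from 5.38e-08. Without moderation of the variances, the members called between mandible and calvaria fell from 3 to 0, with adjusted p of 0.0777 for Sfrp1, 0.0639 for Sfrp2 and 0.148 for Frzb. The Frzb call between mandible and ulna was lost in 3 of 14 fits, without the trend (adjusted p = 0.0555), without moderation (0.161) and without ulna replicate 1 (0.0578). Read by its probe set of largest change (1448424_at), Frzb was not called from ulna or calvaria (adjusted p from limma 0.171 and 0.185). With each member read by its probe set of largest change, 3 members were called between mandible and ulna and 2 between mandible and calvaria. Frzb could not be tested without either mandible array. A site left with 1 array is taken to vary like the other groups. Values near 0 changed sign. For Sfrp5 between calvaria and ulna the log2 difference was −0.021 with an offset of 0.25 array medians. With 1 array left out in turn, it ran from −0.76 to 0.77 there and from −0.59 to 0.94 between mandible and ulna. The same range was −0.17 to 0.30 for Sfrp1 between calvaria and ulna, and −0.029 to 0.071 for Sfrp4 between mandible and calvaria.

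With a replicate block from the numbers in the titles, 2, 4 and 3 members were called in the order of the report, as without it, and no member changed its call. The log2 deviations of equally numbered arrays did not correlate (r = −0.0048, 0.0058 and −0.0123). With 2 arrays per site this cannot tell whether arrays of different sites share animals. Dividing each array by its median moved the log2 difference between mandible and ulna of the median tested probe set to −0.13, from −0.02 with the values as deposited.

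Counts in the Wnt lists depended more on the settings, and the cause was not tested beyond the settings themselves. The ranges below do not follow 1 rule. They include adjusted p alone, which drops the 2-fold limit and counted 9 other antagonists between calvaria and ulna (8 higher and 1 lower). They also include a filter at the 75th percentile, under which some genes called in the main fit were not tested. In the order of the comparisons in the report, and over the settings that keep all arrays, other antagonists called ran from 2 to 9, from 4 to 8 and from 1 to 5. Ligands ran from 0 to 2, from 2 to 6 and from 1 to 5. Receptors ran from 8 to 14, from 7 to 16 and from 2 to 9. Transducers ran from 0 to 2, from 0 to 5 and from 0 to 3. Targets ran from 2 to 5, from 4 to 9 and from 1 to 5. Sfrp5 could not be tested with a filter at the 75th percentile.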

Other observations

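Osteoclast markers, with 9 of 10 tested, summed to 12050 to 12360 in calvaria, 6416 to 6672 in mandible and 3482 to 3946 in ulna. Of these 9, 5 were called lower in mandible than in calvaria, where 4.01% of all genes tested were called lower. Osteocyte markers, with 6 of 7 tested, summed to 6534 to 7243 in calvaria, 9398 to 9405 in mandible and 3441 to 3498 in ulna. Of these 6, 1 was called higher in mandible than in calvaria, where 5.14% of all genes tested were called higher. Adipocyte markers, with 3 of 7 tested, summed to 2305 to 2323 in calvaria, 1808 to 1823 in mandible and 5682 to 5936 in ulna. Markers of neurons and glia summed to 1589 to 1599 in calvaria, 1288 to 1297 in mandible and 416 to 428 in ulna. Erythroid markers summed to 6534 to 7064, 3740 to 4134 and 10920 to 11350 in the same order of sites, neutrophil markers to 66200 to 71160, 55370 to 55550 and 78860 to 79970, B cell markers to 2342 to 2579, 1266 to 1282 and 2077 to 2187, macrophage markers to 4159 to 4364, 2668 to 2684 and 3194 to 3390, and endothelial markers to 977 to 1077, 1031 to 1137 and 1119 to 1227. The part of these markers in the differences of the members was not tested.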
